A study of Gallus gallus with 2 samples.

Results

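Plasma carrier, apolipoprotein and fibrinogen genes encode the proteins that carry lipid, hormone, vitamin and iron in blood, form the clot and trap proteases. The 10 genes described here are APOA1, APOB and APOH, the carriers TTR, TF and ALB, the fibrinogen subunits FGA, FGB and FGG, and the protease inhibitor A2M, out of 13009 genes with a symbol on the array. These members were selected on the size of their difference between the same arrays and from their shared role, so every value below is a description and none is tested. Each probe set annotated with 1 of these symbols was taken, which gave 23 of 38382 probe sets. A further probe set, shared between A2ML2 and A2M and called absent on both arrays, was left out.

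In birds the liver secretes most of these proteins in later life, and the endoderm of the yolk sac makes many of them before a liver exists, where they take up and pass on lipid and protein from yolk. APOA1 and APOB are the structural proteins of high and low density lipoprotein, and fibrinogen is built from the products of FGA, FGB and FGG. In mammals the nuclear receptor HNF4A, with C/EBP and forkhead factors, is known to drive this group of genes in liver and in yolk sac endoderm.

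The study compared 2 pieces of the chick gastrula, each measured on 1 Affymetrix GeneChip array. The first array holds heart forming regions (HFR), which contain the precursors of the heart, and the second holds the posterior part of the primitive streak (PPP), where mesoderm leaves the epiblast. Embryos of both groups were incubated for about 12 h at 37.5 °C and electroporated at stage HH3 with pCer2.5-EGFP, in which 2.5 kb of sequence upstream of Cerberus drives a green fluorescent protein. HFR pieces were those that showed the fluorescence, and the stage at excision is given both as HH4-4+ and as HH4-5. Neither the strain nor the number of embryos in a piece of RNA is given in the labels, and the start of each RNA was 45 ng, amplified over 2 cycles.

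The unit throughout is the authors' model-based expression index (MBEI), a linear intensity per probe set, and the error after ± is its model standard error, which covers the probes within 1 array. Because each tissue has 1 array, no difference has a replicate check, and precision is limited by how many arrays there were. A call of present, marginal or absent came with each value. Where the dimmer array had no present call, a fold is written as "at least", taken against the dim value or the lowest present value of that array (6.5 MBEI on the HFR array, 4.8 on the PPP array), whichever was higher. In pieces of tissue, fewer cells of a type and less RNA per cell cannot be told apart.

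The tissue labels and the marker genes listed to check them did not run the same way, so the arrays are called HFR-labelled and PPP-labelled. Of 8 genes listed to check the labels, 7 passed a filter on level (present on the brighter array, at 70.8 MBEI or more). CER1, the Cerberus gene itself, was higher on the PPP-labelled array by at least 3.88-fold, but with a wide error. It read 108.3 ± 19.2 MBEI on the HFR-labelled array (marginal) and 420.2 ± 193.3 on the other (present). Its log2 difference was -1.96 (standard error 0.71). The heart field factors HAND2 (at least 2.15-fold), ISL1 (at least 2.70-fold) and NKX2-5 (at least 1.83-fold) were also higher on the PPP-labelled array. CER1 and these factors met the filter on that array alone, so that their direction follows from the filter. MESP1 (2.60-fold), TBXT (1.93-fold) and MSGN1 (1.76-fold), genes of the streak and its mesoderm, were higher on the HFR-labelled array. Another MESP1 set, absent on the HFR-labelled array and present on the other, had a log2 difference of 0.03. TBX6, the label check that did not pass, was absent on both arrays at 67.7 ± 2.2 and 39 ± 2.6 MBEI. Added poly-A control RNAs had a median log2 difference of -1.49 over 36 probe sets, lower on the HFR-labelled array, and the share of probe sets called present was 38.4% there and 42.2% on the other. Whether the labels of the arrays were exchanged was not settled here. Reporter probe sets of the array were left out with the controls and were not read as a check. An exchange would turn the tissue named in every comparison below. The directions are therefore those of the arrays as labelled.

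Of the 10 genes, 6 passed the level filter with the probe set that stood for them, the one of highest mean level. Among these, APOA1, TTR, FGB, FGG and A2M were higher by 2-fold or more on the HFR-labelled array, where 3.86% of 7389 passing genes lay in that direction. None of the members lay in the opposite direction, where 4.25% of passing genes did. All 5 were also over 2 model standard errors from 0. Of the 285 passing genes at 2-fold or more toward that array, 283 were too, or 3.83% of all passing genes. Of the 5, 4 (TTR, FGB, FGG and A2M) met the filter on the HFR-labelled array alone, so that their direction follows from the filter, while APOA1 met it on both arrays. TF passed at 1.40-fold, and APOB, APOH, ALB and FGA did not pass. In the order of all passing genes by difference toward the HFR-labelled array, APOA1 was at place 8, TTR at 10, FGB at 22, A2M at 62, FGG at 64 and TF at 916.

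**Figure D1:**
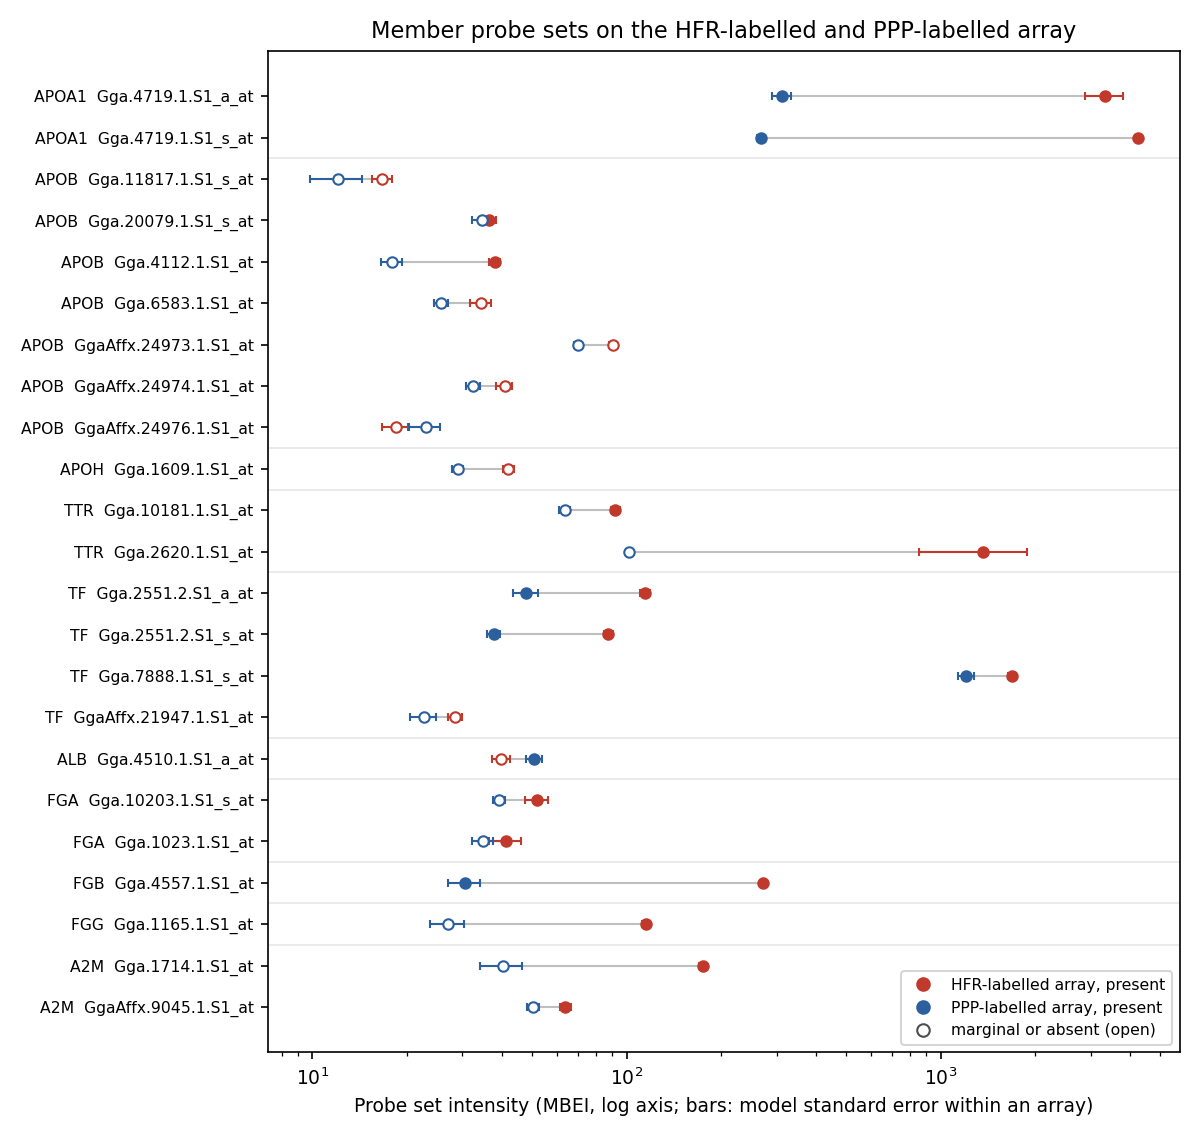
Intensity of the 23 member probe sets, each labelled by gene and probe set name (MBEI, log axis), on the HFR-labelled array (red) and the PPP-labelled array (blue), with model standard errors as bars and open symbols where a probe set was marginal or absent. The widest gaps belong to APOA1, the brighter TTR set and FGB, while the 7 APOB probe sets and both FGA sets lie close together.

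APOA1, the main protein of high density lipoprotein, had 2 probe sets, both made from the same transcript record and so not independent of each other. The brighter set, which stood for the gene, read 4249.7 ± 0.5 MBEI on the HFR-labelled and 267.9 ± 8.4 on the PPP-labelled array, 15.9-fold higher. Its companion read 3330.9 ± 456.9 and 311.5 ± 21 MBEI, 10.7-fold higher. Both arrays called both sets present, so APOA1 RNA was detected in both pieces and was far higher in one of them. The error of 0.5 is 0.0118% of its value, the smallest relative error among 14744 probe sets present on that array, where the median was 4.71%. At 2 errors below its value the companion set would be 2417.1 MBEI, or 7.76-fold over the PPP-labelled array.

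APOB, the large structural protein of very low and low density lipoprotein, had 7 probe sets and 2 of them were present on the HFR-labelled array, 0 on the other. The brightest set, which stood for the gene, read 90.4 ± 2.6 and 69.8 ± 2.0 MBEI and was absent on both arrays. Another set read 38.0 ± 1.5 (present) against 17.9 ± 1.4 MBEI (absent), at least 2.12-fold higher, but lay under the level filter. The other set present on the HFR-labelled array read 36.4 ± 2.0 against 34.7 ± 2.5 MBEI, a difference within its errors. Over the 7 sets the log2 difference ran from -0.32 to 1.09 with a median of 0.37. APOB thus had 1 probe set with a difference of APOA1's direction and past 2-fold, and 6 without.

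APOH (beta-2 glycoprotein I), which binds anionic phospholipid, read 42.0 ± 1.7 MBEI on the HFR-labelled and 29.0 ± 1.2 on the PPP-labelled array with its single probe set. It was absent on both arrays, with a log2 difference of 0.53 (standard error 0.08). An absent call leaves no level to compare, so no fold is given for APOH.

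TTR (transthyretin), the carrier of thyroid hormone and of the retinol binding protein, had 2 probe sets that differed from each other in size. The brighter set read 1365.0 ± 511.7 MBEI on the HFR-labelled array (present) and 102.0 ± 2.1 on the PPP-labelled array (marginal), at least 13.4-fold higher. The log2 difference of this set was 3.74 (standard error 0.54). Its error on the HFR-labelled array was 37.5% of the value, and 12 of the 14744 present sets had one as wide. At 2 errors below its value the set would read 341.6 MBEI, which is 3.35-fold over the PPP-labelled value.

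The dimmer TTR set read 92.1 ± 2.8 (present) and 63.5 ± 2.5 MBEI (absent), at least 1.45-fold higher. The log2 difference of this set was 0.54 (standard error 0.07). Both sets were present on the HFR-labelled array alone and both were higher there, but only the one with the wide error was past 2-fold. With probe sets of relative error under 30%, TTR was represented by the dimmer set, and with the median over its passing sets its log2 difference was 2.14. The size of the TTR difference therefore rests on the brighter set.

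TF, the iron carrier of plasma that in chicken is also the ovotransferrin of egg white, had 4 probe sets, all higher on the HFR-labelled array. The brightest set, which stood for the gene, read 1688.9 ± 47.6 and 1206.2 ± 72.1 MBEI, 1.40-fold higher. A second set read 114.3 ± 4.4 and 47.9 ± 4.5 MBEI, 2.39-fold higher. A set made from the same cluster of sequences read 87.5 ± 2.7 and 37.7 ± 1.8 MBEI, 2.32-fold higher. The last set was absent on both arrays at 28.5 ± 1.5 and 22.6 ± 2.1 MBEI. The TF sets agree in direction and not in size, and with the median over the 3 passing sets TF stood at a log2 difference of 1.21, past 2-fold, and not 0.49.

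ALB (albumin) is the main protein of adult plasma and a carrier of fatty acids. Among the sets that stood for the 10 genes, only that of ALB read lower on the HFR-labelled array. It read 39.9 ± 2.7 MBEI there (marginal) and 50.7 ± 2.9 on the PPP-labelled array (present). The log2 difference of -0.35 (standard error 0.13) was under the level filter and under 2-fold, and it turned to 1.14 with the poly-A control RNAs set equal.

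The fibrinogen genes lie side by side in the order FGB, FGA, FGG in the RefSeq table of assembly GRCg7b, and their products assemble into 1 protein, but their values differed. FGB, the beta chain, read 271.7 ± 2.4 and 30.6 ± 3.5 MBEI and was present on both arrays, higher on the HFR-labelled one by 8.88-fold. FGG, the gamma chain, read 115.2 ± 2.9 (present) and 27.0 ± 3.4 MBEI (marginal), at least 4.27-fold higher. FGA, the alpha chain, had 2 probe sets, present on the HFR-labelled array and absent on the other.

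The brighter FGA set read 51.8 ± 4.2 and 39.3 ± 1.8 MBEI, at least 1.32-fold higher. The dimmer one read 41.2 ± 4.8 and 34.9 ± 2.7 MBEI. Its log2 difference of 0.24 (standard error 0.20) was under 2 standard errors from 0. Both FGA sets lay under the level filter and well short of 2-fold. All 4 fibrinogen sets were thus present on the HFR-labelled array. The PPP-labelled array called FGB present, FGG marginal and FGA absent. The difference was past 2-fold for FGB and FGG and not for FGA.

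A2M (alpha-2-macroglobulin), which traps proteases of many classes, had 2 probe sets of its own. The brighter set read 175.4 ± 5.2 (present) and 40.4 ± 6.2 MBEI (absent), higher on the HFR-labelled array by at least 4.34-fold. The dimmer set read 63.8 ± 2.6 (present) and 50.4 ± 2.3 MBEI (absent), at least 1.27-fold higher and under the level filter. As with TTR, both sets were present on the HFR-labelled array alone and 1 of them was past 2-fold.

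**Figure D2:**
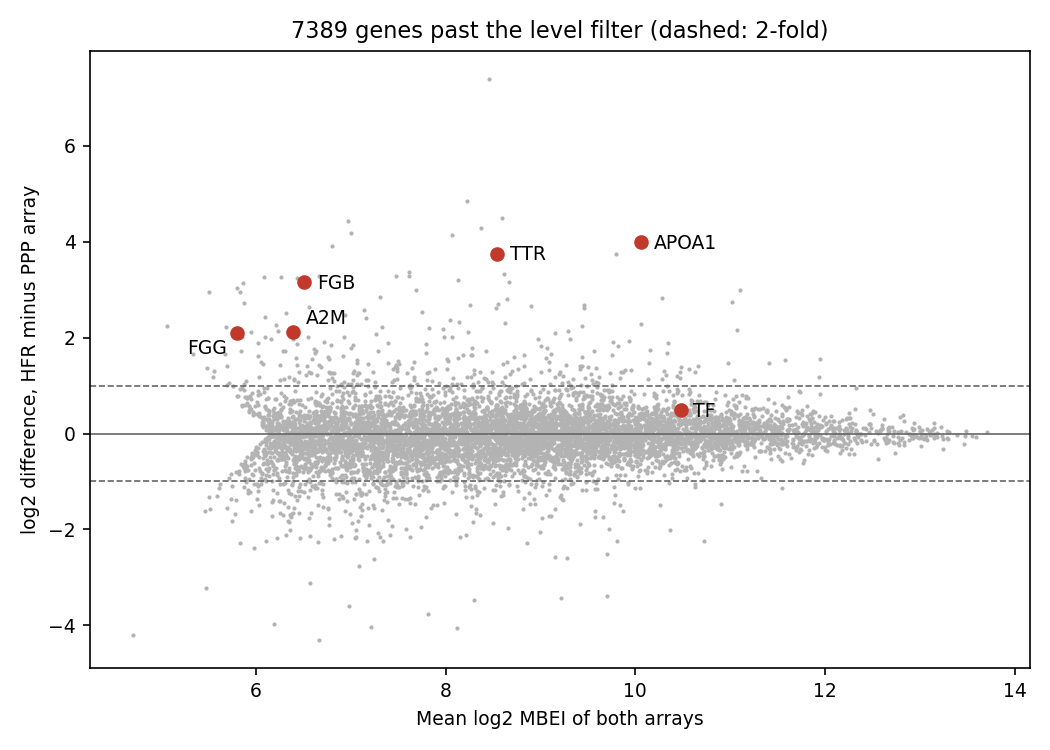
log2 difference (HFR-labelled minus PPP-labelled array) against mean log2 MBEI for the 7389 genes past the level filter, with the 6 passing members in red and 2-fold marked by dashed lines. APOA1, TTR, FGB, A2M and FGG lie above the upper line, and TF lies between the lines at 0.49.

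Detection calls were counted over all 23 probe sets. On the HFR-labelled array 15 were present, 1 marginal and 7 absent, where 38.4% of all probe sets were present. On the PPP-labelled array 7 were present, 2 marginal and 14 absent, where 42.2% of all probe sets were present. Present on the HFR-labelled array alone were 9 sets, from APOB, TTR, FGA, FGG and A2M, where 3.6% of all probe sets had that pattern. Only the ALB set was present on the PPP-labelled array alone, where 7.37% of all probe sets were. Both arrays called 6 sets present, from APOA1, TF and FGB, where 34.8% of all probe sets were present on both.

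Dim probe sets leaned toward the HFR-labelled array across the whole chip, which bears on APOB, APOH, FGA and the dimmer sets of TTR and A2M. Among 20811 probe sets present on neither array, the median log2 difference was 0.13 and 68.5% lay above 0, with the middle 90% between -0.40 and 0.59. The 7 member sets of that kind, from APOB, APOH and TF, ran from -0.32 to 0.53, inside those limits. Among the 1381 sets present on the HFR-labelled array alone the median was 0.30 and the 95th percentile 1.67, and the FGG set and the brighter sets of TTR and A2M lay past it. The FGA sets (0.40 and 0.24) and the dimmer sets of A2M (0.34) and TTR (0.54) lay between the quartiles, 0.09 and 0.57. The APOB sets of that kind had 0.07 and 1.09. For comparison, the median over the 13363 sets present on both arrays was -0.06.

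**Figure D3:**
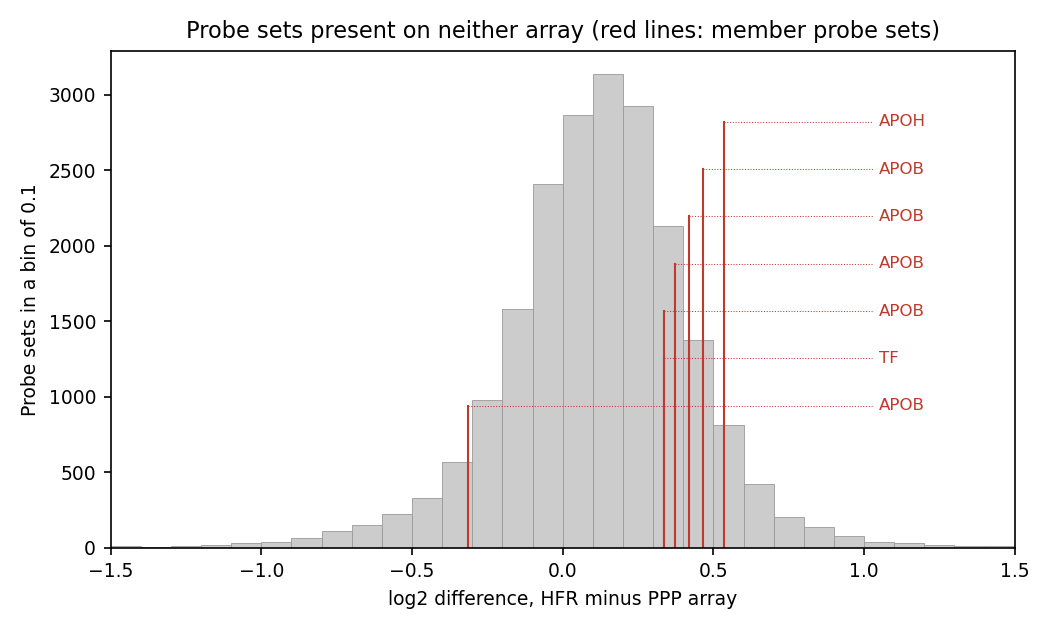
Distribution of the log2 difference (HFR-labelled minus PPP-labelled array, bins of 0.1) for probe sets present on neither array, with the 7 member sets of that kind as red lines and 68 sets beyond 1.5 in either direction not drawn. All member lines lie between -0.32 and 0.53, within the bulk of the bars.

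Across the 10 genes the median log2 difference was 1.31, against 0.05 over all genes. Across the 6 that passed it was 2.63, against -0.05 over all passing genes. Of these 6, 4 met the filter on the HFR-labelled array alone, which sets their direction, and the members were selected on this difference. The medians are therefore a description and no measure of a shared shift. The plot of settings gives each gene's difference when the processing was changed. Setting the poly-A control RNAs equal added 1.49 to every log2 difference, which put 6157 of 7389 genes at 2-fold or more toward the HFR-labelled array and 17 toward the other, in place of 285 and 314. It carried ALB above 0 and TF past 2-fold. A constant cannot change where the members lie among other genes.

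**Figure D4:**
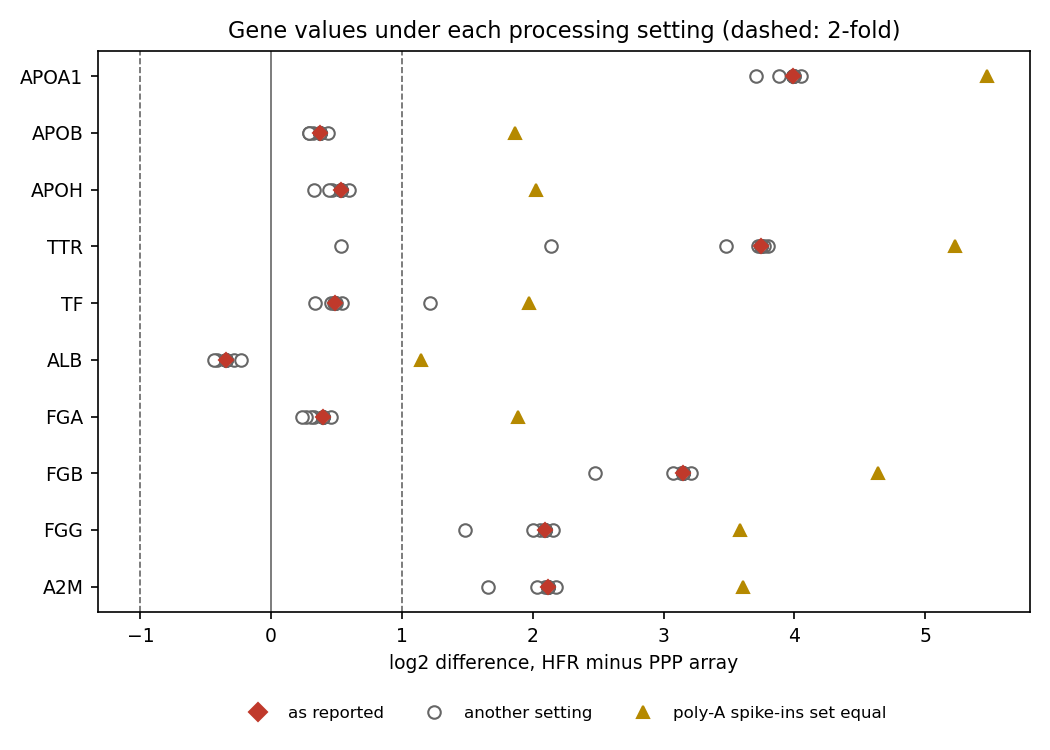
log2 difference (HFR-labelled minus PPP-labelled array) of each of the 10 genes as reported (red), under the other settings (open) and with poly-A control RNAs set equal (triangles). TTR runs from 0.54 to 3.80 without the triangle and TF from 0.33 to 1.21, while APOA1 stays between 3.70 and 4.05.

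Other plasma and yolk protein genes went partly the same way. Of 45 listed, 38 were on the array and 7 passed the filter, and 3 of them were higher by 2-fold or more on the HFR-labelled array, 0 on the other. Over all passing genes 3.86% lay at 2-fold or more toward the HFR-labelled array and 4.25% toward the other. These shares stand beside each list below as well. RBP4A, the retinol carrier that travels bound to TTR, read 1835.5 ± 405.9 and 81.3 ± 5.2 MBEI, 22.6-fold higher and present on both arrays. The adhesive plasma protein vitronectin (VTN) read 971.8 ± 3.5 and 273.0 ± 12.1 MBEI, 3.56-fold higher. The lipocalin APOD, which also rides on high density lipoprotein, read 171.0 ± 12.8 (present) and 70.0 ± 9.7 MBEI (absent), at least 2.44-fold higher. APOD met the filter on the HFR-labelled array alone, so that its direction follows from the filter, while RBP4A and VTN met it on both.

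The remaining 4 of the 7 were within 2-fold, with log2 differences of 0.47 for the complement gene C4, 0.10 for the clotting factor F10, -0.14 for F5 and -0.39 for the copper carrier ceruloplasmin (CP). The list's median was 0.47 over its passing genes. VTG1, VTG2 and APOV1, the yolk proteins that the liver of a laying hen makes, were absent on both arrays, as were both sets of alpha-fetoprotein (AFP). RBP4, listed beside RBP4A, was absent on both arrays too, at 44.3 ± 2.4 and 37.7 ± 1.4 MBEI. APOA2, an apolipoprotein on none of the lists, passed the filter with a log2 difference of 3.17. These last genes were chosen after their values were seen.

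Among genes that assemble lipoprotein or take up plasma proteins, none of those that passed reached 2-fold. Of 23 listed, 20 were on the array and 9 passed, with 0 at 2-fold in either direction and a median log2 difference of 0.07. Nearest to 2-fold was VLDLR, the lipoprotein receptor that also takes yolk into the oocyte, at 349.9 ± 18.1 and 180.9 ± 9.8 MBEI, higher on the HFR-labelled array by 1.93-fold. The transferrin receptor TFRC read 772.4 ± 34.9 and 1012.8 ± 36.1 MBEI by the set that stood for it. The log2 difference of this set was -0.39, opposite in sign to that of its ligand TF. Another TFRC set, absent on both arrays, had a log2 difference of 0.47.

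Cubilin (CUBN), an endocytic receptor that binds APOA1 in mammals, had an absent call on both arrays for the set that represented it. Another of its sets read 203.7 ± 6.0 (present) and 25.9 ± 7.5 MBEI (absent), higher on the HFR-labelled array by at least 7.86-fold, and was chosen after its values were seen. The remaining CUBN sets, absent on both arrays, had log2 differences of 0.27 and 0.04. MTTP, which loads lipid onto APOB, and AMN, the partner of cubilin, had absent calls on both arrays for every set they have, and were picked with their values in view.

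Transcription factors of endoderm and liver went both ways. Of 26 listed, 20 were on the array and 11 passed, and 3 were higher by 2-fold or more on the HFR-labelled array, 1 on the other, with a median of -0.05. HNF4A has 3 probe sets, which did not agree. The set that stood for it read 342.4 ± 42.3 (present) and 57.8 ± 3.8 MBEI (absent), at least 5.92-fold higher. Another read 75.5 ± 5.1 and 55.2 ± 3.7 MBEI with the calls the other way, absent and then present, and the last was absent on both arrays at 28.3 ± 2.1 and 27.2 ± 2.5 MBEI. CEBPB read 484.1 ± 10.8 and 161.8 ± 6.1 MBEI, 2.99-fold higher, and the nuclear receptor NR5A2 read 148.6 ± 2.7 (present) and 61.7 ± 2.1 MBEI (absent), at least 2.41-fold higher. HNF4A and NR5A2 met the filter on the HFR-labelled array alone, so that their direction follows from the filter, while CEBPB met it on both.

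In the opposite direction, the homeobox factor HHEX read 434.8 ± 13.9 and 1339.3 ± 8.2 MBEI, higher on the PPP-labelled array by 3.08-fold. By the sets that stood for them, GATA5, GATA6, SOX17 and FOXA2 had log2 differences of -0.62, -0.54, -0.53 and -0.05. Another SOX17 set had -1.30, past 2-fold, and another GATA5 set -0.97, both present on both arrays. These endoderm factors were picked with their values in view. Of the 11 factors that passed, 5 lay above 0 and 6 below. A role of any of these factors in the values of the plasma protein genes was not tested.

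**Figure D5:**
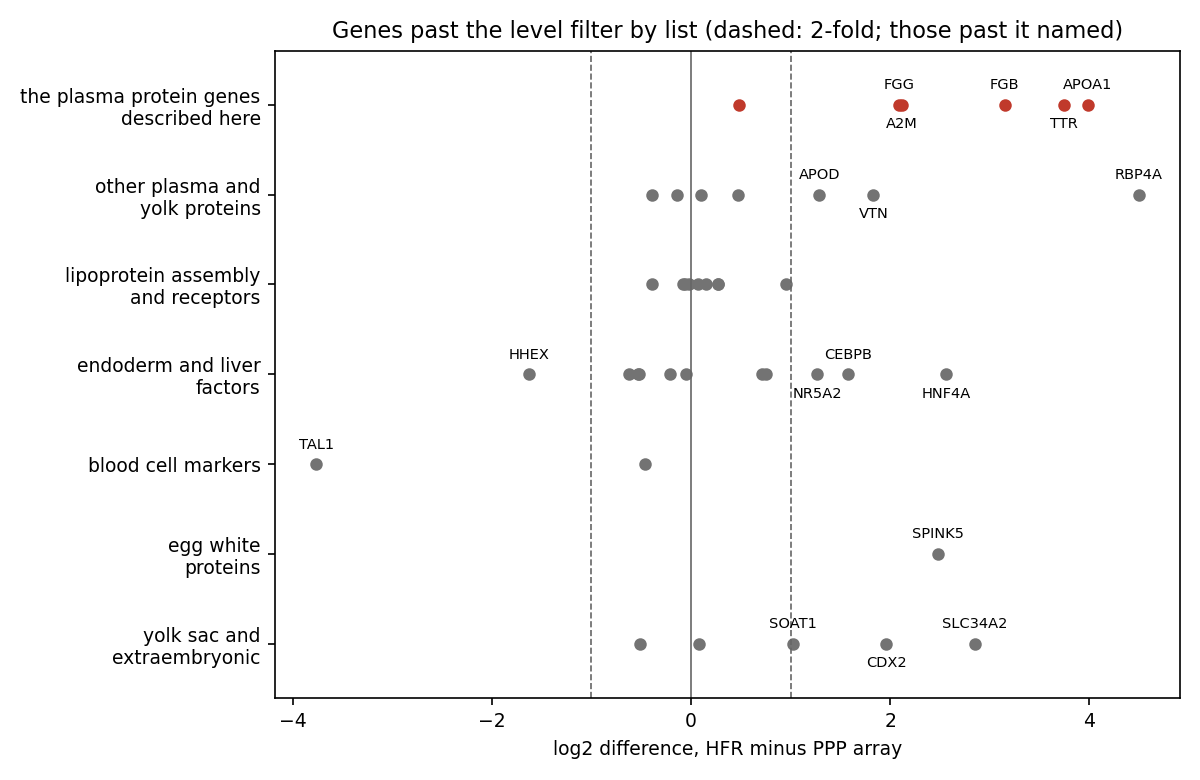
log2 difference (HFR-labelled minus PPP-labelled array) of genes past the level filter, 1 row for each list, with 2-fold as dashed lines and the genes past it named. The plasma protein genes run from 0.49 to 3.99, the assembly and receptor genes from -0.39 to 0.95, and the endoderm and liver factors from -1.62 to 2.57.

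Markers of other tissues were read on the same arrays. Yolk sac and extraembryonic genes lay partly on the side of the members. Of 15 listed, 13 were on the array and 5 passed, and 3 were higher by 2-fold or more on the HFR-labelled array, 0 on the other. These were the phosphate transporter SLC34A2 (7.22-fold), the caudal factor CDX2 (at least 3.89-fold) and the sterol esterifying enzyme SOAT1 (2.03-fold). SLC34A2 and CDX2 met the filter on the HFR-labelled array alone, so that their direction follows from the filter, while SOAT1 met it on both. The other passing genes were the keratin KRT7, with a log2 difference of 0.08, and the aminopeptidase ANPEP, which read 139.5 ± 8.9 and 199.3 ± 12.4 MBEI, a log2 difference of -0.51. CDX2 has 2 further sets, present on neither array, with log2 differences of -0.04 and -0.07. The list's summed level was 5464.2 MBEI on the HFR-labelled and 3883.9 on the PPP-labelled array, both over the sets that stood for each gene, and no gene was listed at 0. Of these sets 6 and 5 were present, and KRT7 alone read 2860.6 and 2698.1 MBEI. Counting any probe set, 7 and 6 of its 13 genes were present. These include DPP4, a peptidase of absorptive epithelium, by a set that read 97.8 ± 12 and 18.6 ± 2.5 MBEI (present on both, 5.26-fold), while its other 2 sets were absent. FABP1 and VIL1, genes of mature absorptive epithelium, were absent on both arrays. So were FABP2, GATA2, GATA3 and TFAP2C of the same list. TFAP2A was present on both, at 63.5 ± 10.9 and 30 ± 12 MBEI, but under the level filter. The part of extraembryonic cells in the values of APOA1, TTR, FGB, FGG and A2M was not tested.

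All 9 probe sets of 5 globin genes were absent on both arrays, and by any probe set 1 of 10 blood genes was present on the HFR-labelled and 3 on the PPP-labelled array. The sets that stood for these genes summed to 1077.7 and 1756.1 MBEI, with 0 genes listed at 0. Only 1 and 2 of these sets were present, so the sums include readings of absent sets and are no measure of level. TAL1, a transcription factor of blood precursors, was higher on the PPP-labelled array by 13.6-fold, away from the plasma protein genes. The set that stood for it read 60.9 ± 5.3 and 827.5 ± 225.6 MBEI and met the filter on the PPP-labelled array alone, which sets its direction. Another TAL1 set had a log2 difference of -1.82, and the remaining sets, absent on both arrays, had 0.41 and 0.23. LMO2, the partner of TAL1, was absent on both arrays by the set that stood for it. Another LMO2 set read 44.2 ± 3.8 (marginal) and 501.3 ± 7 MBEI (present), in TAL1's direction by at least 11.3-fold. The LMO2 and DPP4 sets were picked with their values in view. The egg white list held 12 symbols, some of them other names of the same gene, and 8 were found on the array. The 1 that passed was the ovoinhibitor gene SPINK5, at 290.7 ± 8.2 (present) and 52.1 ± 14.9 MBEI (absent), higher on the HFR-labelled array by at least 5.58-fold. SPINK5 met the filter on that array alone, so that its direction follows from the filter. Ovalbumin (OVAL), lysozyme (LYZ) and avidin (AVD), which the oviduct makes with ovotransferrin, were absent on both arrays, while TF was present on both with 3 of its 4 sets. The egg white list summed to 757.7 and 427.7 MBEI over the sets that stood for each gene, of which 2 and 1 were present, so these sums too include absent sets. By any probe set, 3 and 1 of its 8 genes were present, and no gene was listed at 0.

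The passing genes whose pair of log2 levels lay nearest to that of APOA1 were lactate dehydrogenase LDHA (3254.7 ± 430.9 and 243.9 ± 20 MBEI, distance 0.41), the sugar transporter SLC2A14 (3312.5 ± 139.4 and 464.9 ± 4.8 MBEI, distance 0.87) and the Notch ligand DLL1 (2355.0 ± 75.9 and 485.9 ± 3.5 MBEI, distance 1.21). With 2 arrays this likeness holds 2 numbers for each gene and is no more than a place in the plot.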

How the data were processed

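The deposited values are probe set intensities (MBEI) on a linear scale. The authors scaled 6 arrays to a baseline array on invariant probes and modelled the perfect match probes, as the series' design text states. These were the 2 arrays described here and 4 of another study, whose 12 columns were not used. The submitters' processing notes name GCOS 1.3. No genome build is named. Detection calls and model standard errors were deposited with the values, per the file headers. Scaling on invariant probes means that total RNA per cell was not measured.

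From these, log2 differences (HFR minus PPP) were computed with Python 3.11.15, pandas 2.3.3 and statsmodels 0.14.6. Controls and reporters (153 of 38535 probe sets) were left out, and 1 value listed at 0 was set to 0.1. Symbols came from the platform annotation, updated by gene ID with the GRCg7b RefSeq table, with 1 symbol for 27168 probe sets, several for 177 and none for 11037. A gene was represented by its probe set of highest mean log2 level. It passed when its brighter array was present and at or above 70.8 MBEI, the median brighter value. Standard errors were propagated from the model errors. The computed differences and the 2-fold threshold were checked on data with known changes and every call set to present. That check did not cover the detection calls, the level filter, the bounds or the choice of probe set.

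The members and lists were chosen with earlier results of these data known. Genes named by rule are all 10 members, all label checks and the 3 genes nearest to APOA1. From each of 7 lists, up to 4 passing genes at 2-fold or more were also named by rule. Other listed genes, such as C4, VLDLR, TFRC, KRT7, FABP1 and OVAL, fall outside that rule and were picked with values in view. So was APOA2, which is on no list. Alternatives covered scaling, a pseudocount, the filter, the choice of probe set, fold thresholds and model error. A planned search of promoters for factor motifs was not run, since no promoter sequence was at hand.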

Additional observations from a re-analysis of the deposited data

How the results depend on the processing

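The count of 5 members at 2-fold or more was 5 with median centring, quantile normalization, a loess trend removed (span 0.3), a pseudocount of 22.3 MBEI, no level filter, the series' value table, 1.5-fold, 4-fold, or over 2 standard errors. It was 6 with poly-A controls set equal or the median over passing probe sets, 4 when sets with the suffix s, x or a were dropped (which leaves APOA1 none) or with relative error under 30%, and 3 with the stricter filter at 178.6 MBEI, which 4 members passed. The median of 2.63 over passing members was 4.12 with poly-A controls equal, 2.07 with the pseudocount, 1.31 without the filter (10 genes), 3.45 with the stricter filter, 2.13 for the median of passing probe sets, and 2.11 at a relative error under 30%. It stayed between 2.55 and 2.69 under the other settings. Over all passing genes, 285 and 314 at 2-fold became 6157 and 17 with poly-A controls equal, 697 and 963 at 1.5-fold, and 73 and 44 at 4-fold. For single genes, 78 of the recomputed values moved by less than their model error or not at all and 26 by more. No called value changed sign. The 78 include all 10 genes under no filter, under the stricter filter and with the value table. Those settings could not move a gene's value, since a filter leaves it as it is and the value table holds the same values. No paired analysis was possible because each tissue has 1 array. Dim signal or absent calls limit APOB, APOH, ALB and FGA, which did not pass the level filter. The set that stood for APOB read 90.4 MBEI on its brighter array, above 70.8, and failed on its absent call.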
